A study of Mus musculus with 4 samples.

Results

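The response of the aorta to estradiol was examined in disrupting peptide mice (DPM), as the log2 level after estradiol (E2) minus the level after vehicle. It covered 5075 genes of the 12393 gene symbols on an Affymetrix mouse array, those with a level of at least 5 in at least one of the DPM groups. Each gene was represented by the probe set with the highest mean level over the 4 groups, and each difference was taken from the median difference of all genes kept. DPM mice carry a transgene, driven by the CMV promoter, that encodes residues 176 to 253 of estrogen receptor alpha, and this piece of the receptor prevents its binding to striatin. All mice, transgenic and wild-type (WT), were C57BL/6 females 12 to 14 weeks old whose ovaries were removed 1 week before the aortas were taken. Aortas were then kept ex vivo for 4 h with 10 nM beta-estradiol or with ethanol, and 4 aortas were pooled for each RNA sample. The 4 groups were thus DPM with E2, DPM with vehicle, WT with E2 and WT with vehicle. By their titles the E2 groups had 2 replicates and the vehicle groups 3, but the values came as 1 level per group. Nothing in the sources used here says whether these replicates were separate pools or repeat arrays, so the p-values may measure technical spread only.

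Estrogen receptor alpha acts in the nucleus as a transcription factor that binds estrogen response elements, and a small share of it sits at the plasma membrane. At the membrane, striatin holds the receptor together with caveolin 1, G proteins and kinases, and estradiol there starts signalling through Src, PI3 kinase, Akt and MAP kinases within minutes. In endothelial cells this route activates nitric oxide synthase, and in smooth muscle it limits proliferation. A peptide that copies the striatin-binding stretch is meant to block the rapid route, which was not measured here, while the nuclear one can still work. The comparison within DPM aorta therefore addresses which transcripts respond to estradiol when the receptor is kept from striatin.

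Each difference carries a standard error (SE), given after the ± sign, which was recovered from the authors' deposited differences and p. Errors in DPM were 1.33 times those in WT, although the titles name equal numbers of replicates in both genotypes, and no source used here explains the ratio. The median SE was 0.20, and a gene with that error needed a fold of 1.40 to reach an unadjusted p of 0.05. Before centring, the median difference was 0.08, with median levels of 6.93 in E2 and 6.84 in vehicle. All 18 hybridization control probe sets, which detect RNA added from outside, were lower in the E2 group, by a median of -0.47 against 0.02 in WT. The 5′ probe set of Gapdh, which falls with RNA damage, was at 10.18 with E2 and 11.39 with vehicle (-1.21 ± 1.11), and its 3′ probe set at 12.14 and 12.04. In WT the 5′ probe set of Gapdh was higher with E2, by 0.54. The 5′ and 3′ probe sets of beta-actin differed by -0.58 and -0.37 in DPM, and by -0.41 and -0.24 in WT. The part of RNA quality in the results was not tested. Smooth muscle markers were high in every group, with a summed linear level of 37355 (E2) and 39436 (vehicle) in DPM. Of the marker lists of other tissues, heart muscle differed most, with summed linear levels of 173 and 1209 in those same groups.

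Few genes differed much, and after centring none passed the test once the number of genes was allowed for. Centring sets 2537 genes (50%) on either side of 0 in each genotype. At 1.5-fold, 69 genes (1.36% of those tested) were higher with E2 and 122 (2.4%) were lower, 191 in all (3.76%), but without centring 116 were higher and 87 lower. At an unadjusted p under 0.05, 100 genes (1.97%) were higher and 119 (2.34%) were lower. Together these are 219 genes (4.32%), where 253.75 would be reached if no gene differed. Under 0.01 the count was 44 (0.867%), of which 25 (0.493%) were higher and 19 (0.374%) lower, where 50.75 would be reached. With limma's moderated p rebuilt after centring and adjusted by the Benjamini-Hochberg method, 0 genes (0%) were under 0.05. With the p of the authors' deposited table adjusted the same way, 1 gene was under 0.05 (0.0197%), Siah1a. The smallest adjusted p after centring was 0.146, for Eif4enif1, which carries the cap-binding protein into the nucleus. Its level was 6.82 with E2 and 6.81 with vehicle, and its centred difference of -0.08 ± 0.01 came from the centring, since the authors' deposited table gives it a difference of 0.0054. Large differences were more frequent among genes of low level. Of 150 genes with a mean DPM level under 5, 26% reached 1.5-fold, against 0.8% of the 375 genes at 10 or over. The level filter was passed in 1 DPM group only by 29 of the 69 higher genes, by 39 of the 122 lower ones and by 281 of all genes kept.

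**Figure D1:**
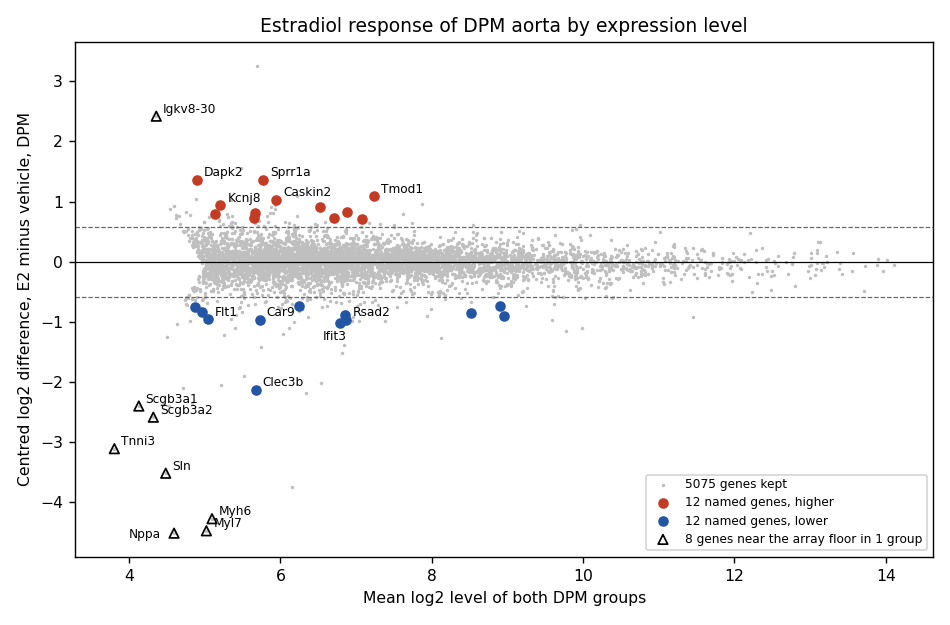
Centred log2 difference (E2 minus vehicle, DPM) of each of the 5075 genes against its mean log2 level in both DPM groups. Dashed lines mark 1.5-fold, filled points the 12 named genes in each direction, and triangles the 8 genes near the array floor in 1 group. The spread narrows with level, and the 3 lowest points are triangles.

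Among the 12 genes furthest up with an unadjusted p under 0.05, the differences ran from 0.71 to 1.37 and the folds from 1.63 to 2.58. Actin regulators, a kinase and a vascular potassium channel were among them. Dapk2, a calmodulin-regulated kinase of the death-associated family, stood at 5.62 with E2 and 4.17 with vehicle, a difference of 1.37 ± 0.57 (unadjusted p 0.049). Its WT levels were 6.60 with E2 and 5.33 with vehicle, so both WT groups lay above the DPM group of the same treatment. Sprr1a, a small proline-rich protein known from the cornified layer of skin and from stressed heart muscle, was at 6.50 with E2 and 5.05 with vehicle (1.36 ± 0.51, unadjusted p 0.034). In WT it was at 5.93 and 4.53, and the E2 level of each genotype lay above both vehicle levels. Tmod1, which caps the slow-growing end of actin filaments, was at 7.82 with E2 and 6.65 with vehicle (1.09 ± 0.31, unadjusted p 0.010). The WT levels of Tmod1 were 7.94 and 6.29, so again the treatments did not overlap between genotypes. Caskin2, a scaffold protein, was at 6.50 and 5.39 in DPM (1.03 ± 0.34) and at 6.24 and 5.26 in WT. Calhm5, of the calcium homeostasis modulator family, was at 7.01 and 6.03 in DPM (0.90 ± 0.20) and at 6.76 and 5.77 in WT. Eva1a, a membrane protein linked to autophagy, was at 6.05 and 5.24 in DPM (0.73 ± 0.27) and at 5.93 and 5.33 in WT. These 6 genes were at 1.5-fold or more in WT as well.

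Other genes of the 12 were higher with E2 in DPM with a smaller or opposite difference in WT. Kcnj8, the pore subunit of the ATP-sensitive potassium channel of vascular muscle, was at 5.72 with E2 and 4.70 with vehicle (0.94 ± 0.26, unadjusted p 0.0099). In WT it was at 5.15 and 5.08, and the difference between the responses was 0.88 ± 0.32 (unadjusted p 0.033). The E2 level in DPM was the highest of the 4 and the vehicle level the lowest. Ezr, ezrin, which ties actin to the plasma membrane, was at 7.47 with E2 and 6.68 with vehicle (0.71 ± 0.19), and at 6.59 and 6.49 in WT. Il17ra, a cytokine receptor, was at 7.12 and 6.30 (0.73 ± 0.15, unadjusted p 0.0024), and a further probe set of it differed by 0.47. Its WT levels were 6.89 and 6.63. In both genes E2 in DPM gave the highest level of the 4 groups, and the responses differed between genotypes by 0.63 ± 0.24 for Ezr and by 0.48 ± 0.19 for Il17ra. Rcbtb2 was at 6.11 with E2 and 5.21 with vehicle (0.82 ± 0.26), while WT had 5.78 and 6.21. Both other probe sets of Rcbtb2 lay at or near the lowest level of the array, at 2.57 and 2.60 and at 2.29 in both DPM groups. Their centred differences of -0.11 and -0.08 came mostly or wholly from the centring, since the deposited ones were -0.03 and 0. St6gal1, which adds sialic acid to glycoproteins, was at 5.57 and 4.69 (0.79 ± 0.28), with its other, low probe set at -0.11. 2210407C18Rik was at 7.33 and 6.42 (0.83 ± 0.30). Both were higher with E2 in WT too, by 0.44 ± 0.21 and 0.54 ± 0.22. With the median over all probe sets of a gene, St6gal1 stood at 0.37 (unadjusted p 0.23), Ezr at 0.34 and Rcbtb2 at -0.052. That value of Rcbtb2 is a deposited difference of 0 after centring. The adjusted p of each of the 24 genes named furthest up or down was 0.99. For the difference between the responses the smallest adjusted p among them was 0.98.

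**Figure D2:**
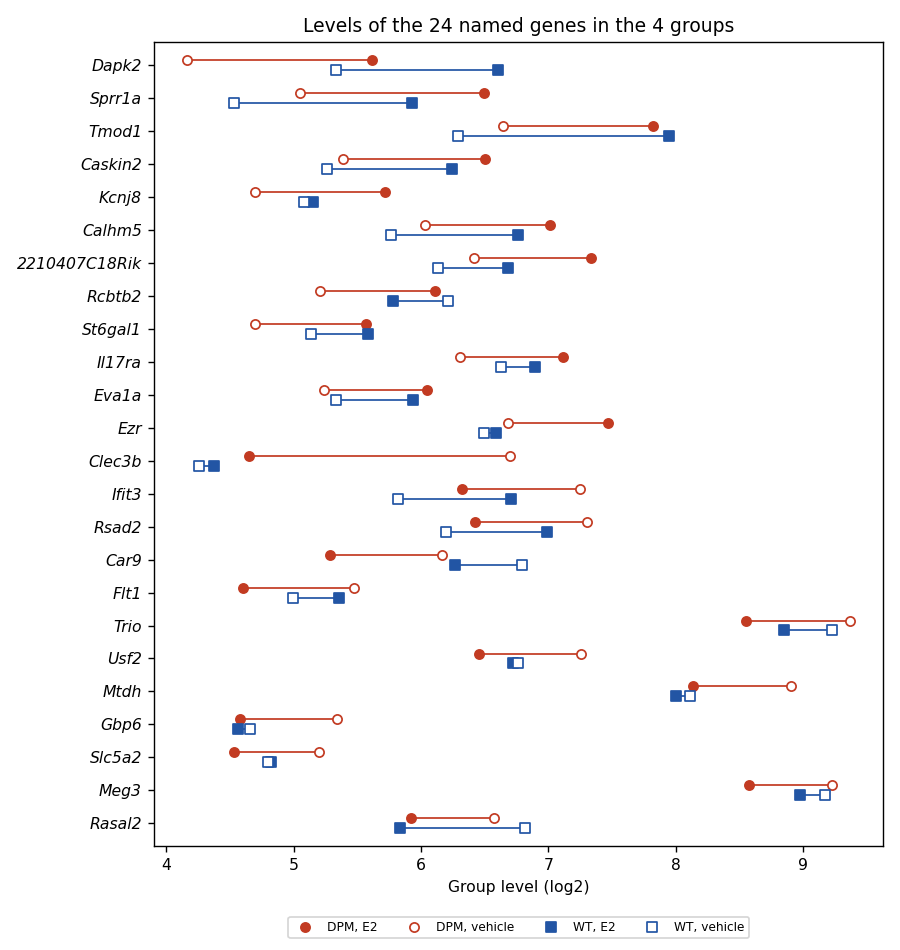
Log2 level of the 12 named genes furthest up (top) and the 12 furthest down (bottom) in each group. Circles are DPM, squares WT, filled symbols E2 and open symbols vehicle, joined within a genotype. The WT pair runs the same way as the DPM pair for 11 of the 12 upper genes and for 7 of the 12 lower ones.

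The 12 genes furthest down held antiviral genes, a growth factor receptor and a hypoxia gene, with differences from -2.13 to -0.73. Clec3b, tetranectin, a plasminogen-binding protein of connective tissue, was at 4.65 with E2 and 6.70 with vehicle (-2.13 ± 0.84, unadjusted p 0.041). In WT it was at 4.38 and 4.26, so the DPM vehicle group stood alone above the other 3. Flt1, a receptor of vascular endothelial growth factor, was at 4.60 with E2 and 5.48 with vehicle (-0.95 ± 0.21, unadjusted p 0.0030). WT Flt1 was at 5.35 and 4.99, the opposite order, and the responses differed by -1.30 ± 0.26 (unadjusted p 0.0019, adjusted p 0.98). Both other probe sets of Flt1 were under a level of 5 and differed by -0.16 and -0.11. Car9, a carbonic anhydrase induced by low oxygen, was at 5.29 with E2 and 6.16 with vehicle (-0.96 ± 0.24, unadjusted p 0.0067). WT Car9 was at 6.27 and 6.79, also lower with E2. Trio was at 8.55 and 9.37 (-0.90 ± 0.22), and a further probe set differed by -0.29. Meg3, a maternally expressed long noncoding RNA, was at 8.58 and 9.23 (-0.73 ± 0.23), and all 4 of its other probe sets were lower, by -0.92 to -0.27. Rasal2, which speeds the hydrolysis of GTP on Ras, was at 5.92 and 6.57 (-0.73 ± 0.20), and at 5.83 and 6.81 in WT. Rasal2 was the only one of the 12 that was 1.5-fold lower in WT as well.

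Some of the lower genes rest on 1 probe set while others of the same gene barely differed. Mtdh, a membrane adhesion protein, was at 8.13 with E2 and 8.91 with vehicle (-0.86 ± 0.29), but 3 other probe sets with a sufficient level differed by -0.11 to -0.03. Usf2, a transcription factor of E-boxes, was at 6.46 and 7.25 (-0.88 ± 0.32), and another probe set differed by -0.15. Slc5a2, the glucose transporter of the kidney tubule, was at 4.53 and 5.20 (-0.75 ± 0.21), and its other probe set, of low level, differed by 0.07. Probe sets of a gene went the same way more often where the difference was large: 52 of the 58 further probe sets of genes at 1.5-fold lay on the same side (89.7%), against 62.2% of the 2496 over all genes kept. With the median over all probe sets, Flt1 stood at -0.13 (unadjusted p 0.56), Mtdh at -0.07 (0.79), Usf2 at -0.48 (0.066), Trio at -0.57 and Slc5a2 at -0.31. Of the 24 genes named furthest up or down, 7 passed the level filter in 1 DPM group only, which were Dapk2, Kcnj8, St6gal1, Clec3b, Flt1, Gbp6 and Slc5a2. Among all 122 lower genes, vehicle was the DPM group further from the WT mean in 71 (58.2%), against 48.1% of all genes kept and 25 of the 69 higher genes (36.2%).

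Large differences lay in genes of heart muscle, airway and antibody, several of them near the lowest level of the array, 2.29, in 1 DPM group. Of the 8 genes near that floor, 7 were high with vehicle and 1 with E2. Nppa, the atrial natriuretic peptide, was at 2.38 with E2, 6.81 with vehicle and 2.30 and 2.31 in WT with E2 and with vehicle. Myl7, the light chain of atrial myosin, was at 2.83, 7.21, 2.31 and 3.10 in the same order. Myh6, the alpha heavy chain of cardiac myosin, was at 3.00, 7.19, 2.50 and 3.33. In all of them the DPM vehicle group was far above the other 3 groups. Sln, an inhibitor of the calcium pump of the sarcoplasmic reticulum, was at 2.77 with E2 and 6.20 with vehicle in DPM. Tnni3, cardiac troponin I, was at 2.29 with E2, the floor of the array, and at 5.32 with vehicle. By these levels, before centring, it was at least 8.13-fold lower with E2. That bound leaves out the error, since the deposited log2 difference was -3.02 ± 1.01. The centred differences were -4.51 ± 1.39 for Nppa (unadjusted p 0.016), -4.47 ± 1.81 for Myl7, -4.27 ± 1.80 for Myh6 and -3.51 ± 1.41 for Sln, and with levels this near the floor their size is uncertain. Actc1, cardiac actin, was not near the floor, at 4.32 with E2 and 7.98 with vehicle (-3.74 ± 1.59). All 10 heart muscle markers were lower with E2, with a median of -3.31 (-2.19 with the median over all probe sets of each gene), and 8 of them passed the level filter through 1 DPM group only. That smaller median takes in further probe sets of Myh6, Sln and Ryr2 that were at the floor in both DPM groups. Their summed linear level was 173 with E2 and 1209 with vehicle in DPM, and 129 and 146 in WT. Fewer heart muscle cells in a pool and less RNA per cell cannot be told apart in such samples. The secretoglobins Scgb3a2 and Scgb3a1 of airway secretory cells were at 3.07 and 2.97 with E2 and at 5.57 and 5.29 with vehicle. Their WT levels were 2.29 and 2.43, and their differences, -2.58 ± 2.52 and -2.40 ± 2.18, were about as large as their errors. Bpifa1 and Scgb1a1, the other airway markers kept, differed by less than their errors, at -2.05 ± 3.12 and -1.90 ± 3.34. Summed over the 7 airway markers the linear level was 74.1 with E2 and 261 with vehicle in DPM, and 35.0 and 34.9 in WT. All 4 airway markers kept passed the level filter through DPM vehicle alone, the group where they are high. The surfactant gene Sftpb was at the floor in every group, and Sftpc and Sftpa1 lay near it.

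Immunoglobulin genes ran the other way. Igkv8-30, a variable segment of the kappa light chain, was at 5.61 with E2 and 3.11 with vehicle (2.42 ± 1.45, unadjusted p 0.14), and at 2.90 and 3.09 in WT. Ighm, the constant region of the IgM heavy chain, was at 7.36 with E2 and 4.02 with vehicle (3.26 ± 1.74, unadjusted p 0.11), and at 4.01 and 3.97 in WT. Ighm had the highest difference of the 5075 genes and was named after its values were seen. In both genes DPM with E2 stood alone above the other 3 groups. Leukocyte markers had a summed linear level of 763 with E2 and 641 with vehicle in DPM, and of 550 and 508 in WT. Of the 5 kept, 3 were higher and 2 lower, from Cd53, a surface protein of leukocytes, at 6.44 and 5.41 (0.95 ± 0.40), to Cd74, which helps load MHC class II, and Cd68, a macrophage protein, at -0.08 ± 0.29 and -0.19 ± 0.22. The part of these cells in the other results was not tested.

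**Figure D3:**
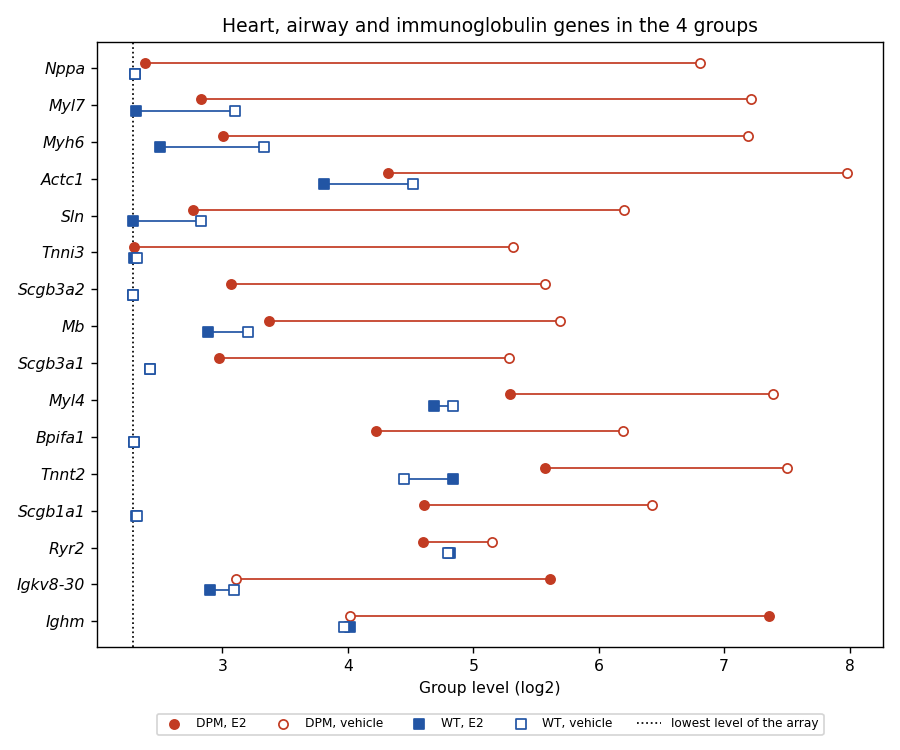
Log2 level in each group of the genes near the array floor in 1 DPM group, with the other heart muscle and airway markers kept and Ighm. Circles are DPM, squares WT, filled symbols E2, open symbols vehicle, and the dotted line the lowest level of the array, 2.29. The open circle lies furthest right for every heart and airway gene, and the filled circle for both immunoglobulin genes.

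Genes induced by interferon were the list furthest below the median apart from the heart and airway markers. Interferons are secreted on infection and, through JAK kinases and the STAT and IRF factors, switch on antiviral genes whose promoters carry an interferon-stimulated response element. The promoters of Ifit1, Ifit3 and Rsad2 are shown because these genes were at 1.5-fold in both genotypes with opposite directions and hold the element. Oasl2 met the same condition on its values, and its promoter holds no match. Each line gives positions -170 to -71 before the start site on the gene's own strand, from RefSeq on GRCm38.p6, with matches to GAAANNGAAA, read on either strand, in capitals.
Ifit1 (chr19:34640719-34640818, plus strand): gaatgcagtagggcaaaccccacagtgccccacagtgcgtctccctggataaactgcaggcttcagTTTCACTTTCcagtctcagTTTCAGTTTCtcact
Ifit3 (chr19:34583359-34583458, plus strand): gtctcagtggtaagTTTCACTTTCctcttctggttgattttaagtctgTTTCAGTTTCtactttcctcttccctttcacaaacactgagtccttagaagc
Rsad2 (chr12:26456523-26456622, minus strand): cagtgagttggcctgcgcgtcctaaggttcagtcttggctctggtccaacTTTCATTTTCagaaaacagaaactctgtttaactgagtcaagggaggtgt
Ifit1 and Ifit3 each hold 2 matches and Rsad2 holds 1.

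Of the 22 interferon genes kept, of 35 on the array, 20 were lower with E2 in DPM and 2 were higher, with a median of -0.43 against 0.00 over all genes. At 1.5-fold, 10 were lower and 0 higher, of which Gbp6, Gbp3, Oasl2 and Bst2 passed the level filter through vehicle alone, and at an unadjusted p under 0.05, 4 were lower, with none passing after adjustment over all genes. Ifit3, which helps restrain translation of viral RNA, was at 6.32 with E2 and 7.25 with vehicle in DPM, and at 6.70 and 5.82 in WT. Rsad2, the antiviral enzyme viperin, was at 6.42 and 7.31 in DPM, and at 6.99 and 6.20 in WT. Ifit1, which binds foreign RNA ends, was at 5.60 and 6.62 in DPM, and at 6.02 and 4.39 in WT. In each of these genes E2 went with a lower level in DPM and a higher one in WT, and DPM with vehicle was the highest group. The DPM differences were -1.01 ± 0.38 for Ifit3, -0.97 ± 0.31 for Rsad2 and -1.11 ± 0.64 for Ifit1. Both other probe sets of Rsad2 were lower as well, by -1.25 and -0.47. Differences between the responses of DPM and WT were -1.88 ± 0.48 for Ifit3 (unadjusted p 0.0067), -1.74 ± 0.38 for Rsad2 (0.0034) and -2.72 ± 0.80 for Ifit1 (0.013). Over the list that difference had an unadjusted p under 0.05 in 10 genes, all lower, where 1.85% of all genes kept were lower at that level. Gbp6, an interferon-induced GTPase, was at 4.58 with E2 and 5.34 with vehicle (-0.84 ± 0.21, unadjusted p 0.0055), and at 4.56 and 4.66 in WT. Cxcl10, a chemokine that draws T cells, was at 6.75 and 7.36 (-0.70 ± 0.44), and at 6.50 and 6.24 in WT. Both had their highest level in DPM with vehicle, but Gbp6 was not higher with E2 in WT. Only Isg20 and Samhd1 lay above the median, at 0.16 ± 0.23 and 0.20 ± 0.11.

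The DPM vehicle group was the highest of the 4 for 17 of the 22 genes (77.3%), against 17.0% of all genes kept. WT with vehicle was the lowest for 17. Gbp6, Gbp3, Oasl2 and Bst2 are among the 22 and passed the level filter through DPM vehicle alone. For those 4 genes the filter itself favoured a high DPM vehicle level. Over all 5075 genes kept, 281 passed in 1 DPM group only. Between the vehicle groups the list's median difference, DPM minus WT, was 0.62, and between the E2 groups it was -0.09. The vehicle groups were thus further apart for these genes than the E2 groups. RefSeq promoters of 300 bases were found for 18 of the 22 genes, 23 promoters in all, and 10 of these 23 (43.5%) held GAAANNGAAA. The share was 2.81% of the 5411 promoters of genes kept, 6.06% of promoters of genes 1.5-fold lower and 0 of 85 for genes 1.5-fold higher. The 8 lower genes that held it were Bst2, Cxcl10, Gbp2, Gbp3, Ifit1, Ifit3 and Rsad2, all interferon genes of the list, and Zdhhc8. The share among lower genes is thus not separate from that of the list. Besides the promoters shown, those of Cxcl10, Gbp2, Gbp3, Bst2, Ifitm3, Igtp and Irgm1 held it. A full estrogen response element, GGTCANNNTGACC, was found in 0 of the 5411 promoters of genes kept and in 0.07% of all 32851.

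Genes of the receptor, striatin and its kinases differed little. The estrogen receptors were hardly seen by the array, with Esr1 at 2.31 in both DPM groups and Esr2 at the floor, and Strn, striatin itself, at 3.11 with E2 and 3.33 with vehicle. Of 29 genes kept, 15 were higher and 14 lower, with a median of 0.00, and 1 of them reached 1.5-fold. That gene was Rras2, a small GTPase related to Ras, at 7.84 with E2 and 7.14 with vehicle (0.62 ± 0.15, unadjusted p 0.0055), and at 7.39 and 7.14 in WT. Cav1, the coat protein of caveolae, differed by 0.03 ± 0.15, and Nos3, the endothelial nitric oxide synthase, was at 6.17 and 6.33 (-0.24 ± 0.25). Map2k1, a MAP kinase kinase, was at 9.65 with E2 and 9.17 with vehicle (0.40 ± 0.17, unadjusted p 0.051). At an unadjusted p under 0.05 the list held 1 higher gene, Rras2, and 1 lower gene. Rras2 was the gene of the list with the largest response, and its WT response was smaller.

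Known estrogen targets lay on both sides of the median. Of the 19 kept, 8 were higher and 11 lower, with a median of -0.05 against 0.18 in WT. Efemp1, a fibulin of the extracellular matrix, was the 1 gene at 1.5-fold, at 6.96 with E2 and 6.00 with vehicle (0.88 ± 0.39, unadjusted p 0.064), and at 6.08 and 5.71 in WT. Tiparp, an ADP-ribosyltransferase, was at 9.20 and 8.63 in DPM (0.49 ± 0.38) and at 9.59 and 8.54 in WT. Both were higher with E2 in each genotype. Immediate early genes, which kinases switch on within minutes, had 15 of 38 higher and 23 lower, with a median of -0.05 against 0.19 in WT. Junb, a subunit of the AP-1 factor, was at 9.25 with E2 and 10.31 with vehicle (-1.14 ± 0.86), and at 9.88 and 9.80 in WT. Plaur, the urokinase receptor, was at 7.53 and 8.35 (-0.91 ± 0.55), and at 7.92 and 8.03 in WT. For both, the DPM groups lay outside the range of the WT groups on either side, and the error was large. Phlda1 was the only member with an unadjusted p under 0.05, at 8.25 and 8.69 (-0.52 ± 0.20). Fos and Fosb, partners of Junb in AP-1, stood above the median, at 0.23 ± 0.31 and 0.22 ± 0.32.

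Genes of the vessel wall lay slightly below the median with E2. Of 25 smooth muscle contractile genes, 21 were lower and 4 higher, with a median of -0.12 against -0.07 in WT. Des, the intermediate filament desmin, was at 4.64 with E2 and 5.50 with vehicle (-0.94 ± 0.42), and Myl6, a myosin light chain, was at 5.81 and 6.35 (-0.63 ± 0.25). The unadjusted p of Myl6 was 0.043, but 0.068 without centring and 0.051 with the median over all probe sets. Myl6 has 1 probe set, so the latter p differs only through the centring of that setting. Smtn, smoothelin, of contractile muscle cells, was at 10.43 and 10.81 (-0.46 ± 0.15, unadjusted p 0.021), with 10.71 and 10.88 in WT. Tmod1 was the exception, the single contractile gene at 1.5-fold higher. The abundant contractile proteins stayed near the median, with Acta2 at -0.16 ± 0.09, Myh11 at -0.12 ± 0.12 and Tagln at -0.13 ± 0.13. Of 49 extracellular matrix genes, 36 were lower and 13 higher, with a median of -0.14 against -0.11 in WT. Tnc, tenascin C, a matrix protein made in injured vessels, was at 7.73 with E2 and 8.16 with vehicle (-0.51 ± 0.09, unadjusted p 0.0011), and at 8.14 and 8.54 in WT. Mmp3, the protease stromelysin, was at 6.97 and 7.52 (-0.63 ± 0.41), and at 7.03 and 8.22 in WT. Both were lower with E2 in each genotype. Ltbp2, which binds fibrillin, went the other way, at 6.39 and 5.79 (0.52 ± 0.16, unadjusted p 0.017), and at 5.66 and 5.91 in WT.

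Among 26 endothelial genes, 18 were lower and 8 higher, with a median of -0.15 against 0.10 in WT. Beside Flt1, Eng, a co-receptor for transforming growth factor beta, was at 6.49 with E2 and 7.10 with vehicle (-0.69 ± 0.37), and at 7.01 and 6.71 in WT. Sele, the adhesion molecule E-selectin, was at 5.71 and 6.33 (-0.70 ± 0.34), and at 5.21 and 6.17 in WT. Emcn, endomucin, was the furthest up, at 5.58 and 4.998 (0.50 ± 0.22), so the endothelial genes did not share 1 direction. Summed over the 7 endothelial markers, the linear level was 756 with E2 and 822 with vehicle in DPM, and 886 and 710 in WT. Inflammatory cytokines and adhesion genes had 28 of 37 lower and 9 higher, with a median of -0.24 against -0.09 in WT. Nfkb2, a subunit of NF-kappa B, was at 6.29 and 6.94 (-0.73 ± 0.52), and Cxcl2, a chemokine for neutrophils, was at 9.76 and 10.28 (-0.60 ± 0.26, unadjusted p 0.059). Lif, a cytokine of the interleukin 6 family, was at 8.65 and 9.08 (-0.51 ± 0.23). Il17ra was the only gene of that list at 1.5-fold higher. Cxcl10, Sele and Vcam1 stand in more than one list, so the medians of these lists are not independent.

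Metabolic genes lay on either side of the median by function. Of 28 hypoxia and glycolysis genes, 21 were lower and 7 higher, with a median of -0.10 against -0.14 in WT. Slc16a3, which exports lactate, was at 7.90 with E2 and 8.44 with vehicle (-0.62 ± 0.35), and at 8.37 and 8.72 in WT. Pgk1, a glycolytic kinase, was at 11.28 and 11.40 (-0.20 ± 0.07, unadjusted p 0.018), and Ero1a, an oxidase of protein folding, was at 8.72 and 9.07 (-0.44 ± 0.19). With Car9, these genes were lower with E2 in both genotypes. Subunits of the respiratory chain and ATP synthase showed 53 of 69 higher and 16 lower, but the median was 0.08, 0 reached 1.5-fold and 0 had an unadjusted p under 0.05. The furthest were Ndufa6 and Ndufa9, subunits of complex I, both at 7.97 with E2 and 7.53 with vehicle. Cholesterol genes had a median of 0.15 against -0.12 in WT, with 10 of 16 higher, but the median was 0.017 with the median over all probe sets of each gene. They were led by Scd1, a fatty acid desaturase, at 12.49 and 11.93 (0.47 ± 0.37), and Idi1, an isomerase of the sterol pathway, at 6.83 and 6.32 (0.43 ± 0.24).

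A pair of further metabolic lists was chosen after values were seen, so their counts are descriptions only. Peroxisomes break down very long fatty acids, and of the 33 peroxisomal genes kept, 27 were higher and 5 were 1.5-fold higher, where 1.36% of all genes were. But 9 of the 33 passed the level filter in 1 DPM group only, among them 4 of those 5, which passed through E2, where they are high. Abcd3, a transporter of the peroxisomal membrane, was at 7.67 with E2 and 6.97 with vehicle (0.62 ± 0.15, unadjusted p 0.0052), and at 7.38 and 7.28 in WT. Abcd3 passed in both groups. Nudt7, a coenzyme A hydrolase, which passed through E2 alone, was at 5.67 and 4.98 (0.60 ± 0.23), and at 5.24 and 5.22 in WT. Hsdl2, a dehydrogenase-like protein, passed through E2 alone too and was at 5.07 and 4.23 (0.76 ± 0.47), and at 4.87 and 4.89 in WT. In each of these the vehicle level of DPM was the lowest of the 4 groups. Genes that break down branched-chain amino acids and propionate had 23 of 25 higher and 3 at 1.5-fold, but 5 of the 25 passed the level filter in 1 DPM group only, among them Pcca and Mcee of those 3, through E2. Bckdhb, a subunit of the branched-chain ketoacid dehydrogenase, was at 6.37 with E2 and 5.38 with vehicle (0.91 ± 0.45, unadjusted p 0.088), and at 5.57 and 5.41 in WT. Pcca, a subunit of propionyl-CoA carboxylase, was at 5.59 and 4.88 (0.63 ± 0.45). Fat cells also make such enzymes, and the adipocyte markers had a summed linear level of 2631 with E2 and 2072 with vehicle in DPM, and of 2063 and 2188 in WT. The 4 fat cell markers kept were split, with Pck1, an enzyme of glyceride and glucose synthesis, at 8.39 and 7.35 (0.97 ± 0.97) and Ucp1, the uncoupling protein of brown fat, at 10.30 and 9.61 (0.60 ± 0.67). Adipoq, the fat cell hormone adiponectin, was at 9.82 and 9.97 (-0.24 ± 0.72), and Cidec, a lipid droplet protein, differed by 0.03 ± 0.74. The part of fat cells in these lists was not tested. Mesothelium markers were higher in all 4 genes kept, with summed linear levels of 472 and 302 in DPM and 279 and 264 in WT. Upk3b differed by 1.09 ± 1.28 and Krt19 by 0.92 ± 0.63, and Krt19 passed the level filter through E2 alone.

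Genes of the circadian clock differed in both directions. The clock is a feedback loop in which Arntl and Clock drive Per, Cry and Nr1d1, which in turn hold Arntl back. Arntl, the activator, was at 6.29 with E2 and 4.65 with vehicle (1.56 ± 1.00, unadjusted p 0.17), and at 6.32 and 5.80 in WT. Nr1d1, the repressor of Arntl, was at 7.52 and 8.71 (-1.26 ± 0.63, unadjusted p 0.088), and at 8.19 and 7.73 in WT. Dbp, an output of the loop, was at 6.59 and 7.49 (-0.98 ± 1.40), and at 6.72 and 6.01 in WT. DPM with vehicle was thus the lowest group for Arntl and the highest for Nr1d1 and Dbp. Per1, an inhibitor in the loop, was at 5.80 and 6.37 (-0.65 ± 0.52), and Nfil3, a repressor that opposes Dbp, was at 8.89 and 8.20 (0.61 ± 0.27, unadjusted p 0.063). Of 16 clock genes kept, 7 were higher and 9 lower, 2 and 3 of them at 1.5-fold, and 0 had an unadjusted p under 0.05. Their median SE was 0.41, the largest among the 17 lists of pathways.

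Remaining lists stayed close to the median. Heat shock proteins and chaperonins had 21 of 33 higher with a median of 0.04, led by Fkbp5, a co-chaperone of steroid receptors, at 6.96 and 6.21 (0.66 ± 0.40). The proteasome had 19 of 34 higher with a median of 0.04, and Psmb7, a catalytic subunit, was at 9.74 and 9.37 (0.28 ± 0.10, unadjusted p 0.030). Notch signalling was split 5 and 5 with a median of 0.01, and its furthest members were Notch3, a receptor of smooth muscle, at -0.50 ± 0.26, and Heyl, a target of the pathway, at 0.37 ± 0.34. The 9 cell cycle genes had a median of 0.00, with Ccnd3 and Ccnd2, D-type cyclins, lowest at -0.51 ± 0.29 and -0.35 ± 0.16. None of these lists had more than 1 gene at 1.5-fold. Ion channels had 6 of 17 higher and 11 lower, with a median of -0.10. Besides Kcnj8, Orai1, the pore of store-operated calcium entry, was at 5.18 with E2 and 5.77 with vehicle (-0.67 ± 0.50), and Ryr2, the calcium release channel of heart and smooth muscle, at 4.60 and 5.15 (-0.64 ± 0.35). Fibroblast markers were mixed, with Clec3b and Pi16 lower, the latter at 8.91 and 9.57 (-0.74 ± 0.46), and Pdgfra at 6.87 and 6.36 (0.43 ± 0.36).

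**Figure D4:**
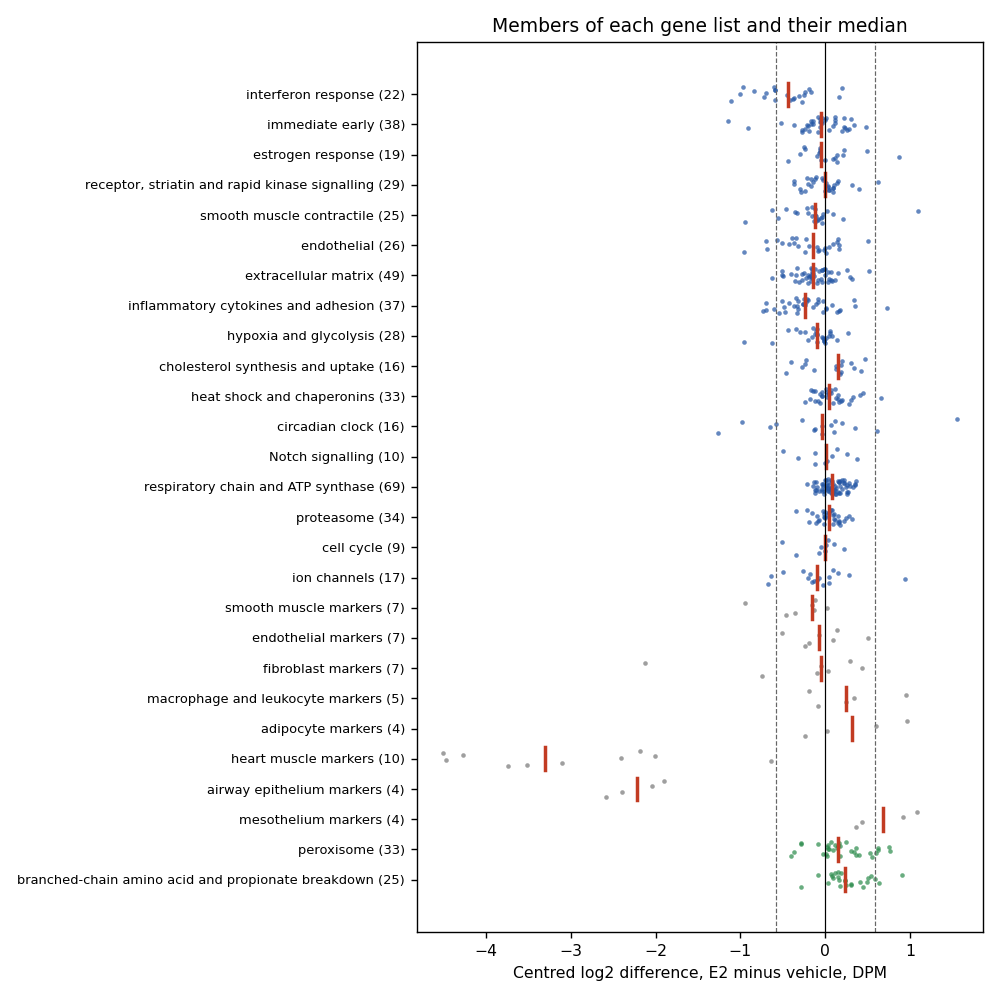
Centred log2 difference (E2 minus vehicle, DPM) of each member of each gene list, with the number of genes kept in parentheses and the median as a red bar. Blue points are pathway lists, grey points cell type markers, green points the lists chosen after values were seen, and dashed lines mark 1.5-fold. Heart and airway markers lie furthest left, and 20 of the 22 interferon genes lie left of 0.

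Set beside the response of WT aorta, which shares no samples with it, the DPM response was alike in a small set of genes. Across the 5075 genes the correlation was 0.14 (Pearson) and 0.10 (Spearman), a description only, since genes are not independent replicates. The sign was the same in 2717 genes (53.5%). WT had 68 genes 1.5-fold higher (1.34%) and 36 lower (0.709%). The level filter used the DPM groups only, so genes expressed mainly in WT were left out of these counts. Errors were also 1.33 times as large in DPM, so the counts and shares of each genotype are not like for like. Higher at 1.5-fold in both were 13 genes, 18.8% of those higher in DPM and 19.1% of those higher in WT. Beside Dapk2, Sprr1a, Tmod1, Caskin2, Calhm5 and Eva1a these were Elk3, Frmd4b, Serpinb6b, Plet1, Upk3b, Myo18a and Cap1. Elk3, a transcription factor that works with serum response factor, was at 6.43 with E2 and 5.69 with vehicle in DPM (0.67 ± 0.21, unadjusted p 0.018), and at 6.40 and 5.45 in WT (0.94 ± 0.16). For Calhm5 the responses were 0.90 ± 0.20 and 0.98 ± 0.15, and their difference, -0.08 ± 0.24, was within its error. For Tmod1 they were 1.09 ± 0.31 and 1.64 ± 0.23, with a difference of -0.55 ± 0.38 (unadjusted p 0.20). Cap1 and Upk3b had errors of 1.62 and 1.28 in DPM, larger than their differences.

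Lower at 1.5-fold in both were 9 genes, 7.38% of those lower in DPM and 25% of those lower in WT. Of these, Myl7, Myh6 and Actc1 are heart muscle genes, and Sele, Mmp3 and Rasal2 are described above. The WT differences of Myl7 (-0.80 ± 1.36), Myh6 (-0.84 ± 1.35) and Actc1 (-0.71 ± 1.20) were smaller than their errors. Malat1, an abundant nuclear long noncoding RNA, was at 11.04 with E2 and 11.86 with vehicle in DPM (-0.91 ± 0.38, unadjusted p 0.051), and at 11.33 and 12.00 in WT. Erdr1 and Rbfox2, a splicing factor, completed the set. For Erdr1 the errors were about as large as the differences, at -2.09 ± 2.22 in DPM and -1.82 ± 1.67 in WT. Another 9 genes were 1.5-fold lower in DPM and 1.5-fold higher in WT, 4 of which were the interferon genes Ifit1, Ifit3, Rsad2 and Oasl2, along with Dbp, Tcap, Rab5c, Erf and Ehd2. Smaller than their errors were the DPM differences of Dbp (-0.98 ± 1.40), Ehd2 (-0.66 ± 1.29) and Oasl2 (-0.60 ± 0.62). Nt5c2, an enzyme of nucleotide breakdown, was 1.5-fold higher in DPM and 1.5-fold lower in WT, at 5.57 and 4.80 in DPM and 5.30 and 5.94 in WT. So was Limd2, at 5.21 and 4.30 in DPM and 3.84 and 4.80 in WT. The differences between the responses were 1.34 ± 0.49 for Nt5c2 (unadjusted p 0.031) and 1.79 ± 1.07 for Limd2 (unadjusted p 0.14). Centred on its median, the difference between the responses was under an adjusted p of 0.05 for 0 genes (0%), with 86 higher (1.69%) and 94 lower (1.85%) at an unadjusted p under 0.05. As deposited it was under that adjusted p for 1 gene (0.0197%), Siah1a.

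**Figure D5:**
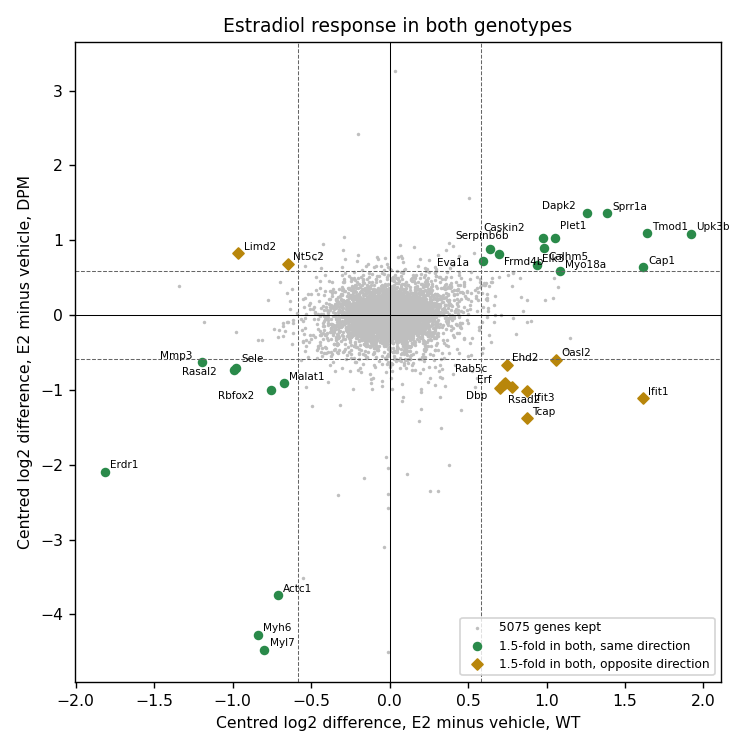
Centred log2 difference, E2 minus vehicle, in DPM (vertical) against WT (horizontal) for the 5075 genes, with dashed lines at 1.5-fold. Circles are the 22 genes at 1.5-fold the same way in both, and diamonds the 11 genes at 1.5-fold in opposite directions. The interferon genes lie at the lower right and the shared higher genes at the upper right.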

How the data were processed

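Each RNA sample came from 4 pooled aortas, hybridized to Affymetrix mouse arrays. Per the file headers, the deposited tables hold, for each of 22690 probe sets (64 controls), log2 group levels, 3 log2 differences and their p-values, unadjusted. Per the submitters' processing notes, GCRMA and limma were used, with roles and versions not given. Separate arrays were not analysed here. Symbols came from the platform annotation, updated by Entrez identifier through RefSeq (GRCm38.p6): 20393 probe sets had 1 symbol, 691 several and 1606 none. Just inside and outside the level minimum of 5 lay Dnaaf5 (5.00) and Zfp277 (4.9997). Standard errors were recovered from the authors' deposited log2 differences and p-values at 6.44 total degrees of freedom, where the errors of the 3 contrasts keep 1 ratio. Each difference was centred on the median of genes kept, and limma's moderated p rebuilt and adjusted by Benjamini-Hochberg over 5075 genes (Python 3.11.15, scipy 1.17.1, tested on simulated data). Near the floor means within 1 of the lowest level, 2.29, in 1 DPM group. By rule, the text names the 12 genes furthest in each direction with an unadjusted p under 0.05 and over 1 above the floor, the genes near the floor, up to 4 members of each list at 1.5-fold, Esr1, Esr2, Strn, Cav1, Nos3 and the gene of smallest p. List members under 1.5-fold, and genes shared with WT, were picked with their values in view. Members and lists were chosen with earlier results of these data known. Alternatives were the centring, quantile normalization, the level filter, the probe set per gene and the degrees of freedom.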

Additional observations from a re-analysis of the deposited data

Results flagged for a closer look

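Siah1a, a ubiquitin ligase, differed between genotypes in its response to E2 by a test of the difference itself, but only before centring. In the authors' deposited table its response in DPM minus that in WT was 0.17 on the log2 scale (0.165303, unadjusted limma p 8.82e-06), and the adjusted p over 5075 genes was 0.045. Its levels were 6.20 with E2 and 6.04 with vehicle in DPM and 6.04 in both WT groups, and its response in DPM as deposited had an adjusted p of 0.011. The SE of that DPM response was 0.01, where the median SE over all genes kept was 0.20. With so small an error, a small difference was enough for the call. Centred on the median of all genes, the difference between the responses was 0.10 with an adjusted p of 0.38.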

How the results depend on the processing

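No paired analysis was possible because each group came as 1 level, with no value per replicate, and for the same reason no replicate could be left out. Depth here is the number of arrays, which with the SE sets what can be called. Without centring, with p as deposited, 116 genes were 1.5-fold higher and 87 lower. At an unadjusted p under 0.05 that setting had 217 genes higher and 50 lower, at a p under 0.01 it had 56 and 5, and 1 gene, Siah1a, had an adjusted p under 0.05. Of the 219 genes at an unadjusted p under 0.05, 150 were so as deposited, 206 after quantile normalization and 119 with the median over all probe sets. Quantile normalization gave 1 adjusted call, Eif4enif1. A level minimum of 4 gave 33 genes lower at p under 0.01 and 2 adjusted calls (Cysrt1 and Dlg3, whose deposited levels hardly differ), and a minimum of 6 gave 40 genes 1.5-fold higher and 80 lower. With no filter, 173 were 1.5-fold higher, 294 and 81 higher at p under 0.05 and 0.01, 1 had an adjusted p under 0.05 (Siah1a), and the nerve and Schwann cell median became -0.023. The median over all probe sets left 63 lower at p under 0.05, and 12 degrees of freedom gave 29 lower at p under 0.01 and 1 adjusted call (Eif4enif1). Rcbtb2 turned to -0.052 with the median over all probe sets, and Eif4enif1 to 0.0054 without centring. The value of Rcbtb2 came from the centring, since the middle one of its 3 probe sets had a deposited difference of 0. The median over all probe sets also left Myh6 at -2.15, Sln at -1.77, Des at -0.48, Eng at -0.22, Fkbp5 at 0.39, Orai1 at -0.38, Pck1 at 0.47, Pi16 at -0.38 and Ryr2 at -0.33. For Myh6, Sln, Des, Pck1, Pi16 and Ryr2 the other probe set was at the floor in both DPM groups. The smaller values of these genes thus take in a probe set without signal. Medians near 0 also turned without centring, to 0.03 for immediate early and for estrogen response genes, 0.04 for the clock, 0.08 for the cell cycle, 0.01 for endothelial and 0.03 for fibroblast markers. The interferon median, -0.35 without centring, did not turn under the settings run. Without the heart and airway markers, a setting added after seeing the data, 108 genes were 1.5-fold lower and 116 lower at p under 0.05.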
